A study of Mus musculus with 61 samples.

Results

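The 10 genes described here encode parts of the Wnt and R-spondin signalling system: the secreted amplifier Rspo4, its receptors Lgr4 and Lgr5, the feedback genes Axin2, Rnf43, Znrf3 and Nkd1, and the ligands Wnt4, Wnt7a and Wnt7b. They were followed in RNA sequencing libraries of mouse pancreatic ductal organoid cells, in which they make up 10 of 46078 genes counted. Rspo4 was selected on its measured level, which was higher in cells with Neurogenin3 (Ngn3, gene symbol Neurog3), and Lgr5 as a known marker of organoid progenitors. The other 8 genes were taken as their partners. Values of Rspo4 with and without Ngn3 are therefore given as a description, with no test.

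Wnt ligands bind Frizzled receptors with LRP co-receptors, which protects β-catenin from destruction and lets it act with TCF/LEF factors on target genes. RNF43 and ZNRF3 are membrane ubiquitin ligases that remove Frizzled from the cell surface, and R-spondins, bound to LGR receptors, keep these ligases from doing so. Axin2, a scaffold of the β-catenin destruction complex, Nkd1, which binds Dishevelled, Rnf43, Znrf3 and Lgr5 are known as target genes of the pathway, the first 4 of which restrain it. Ductal organoids grow in medium with R-spondin, and Lgr5 is known as a marker of cells that can found such cultures.

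Organoids from C57BL/6 mice had been infected with separate doxycycline-inducible lentiviral vectors for Ngn3 with GFP, Pdx1 with LSS-Orange and MafA with Tomato, together with a Tet-On transactivator, and were induced for 8 days. Pools of 50 cells were sorted by these colours as Pdx1, MafA, Pdx1 with MafA, and each of those combinations with Ngn3. Each of the 6 combinations was sorted from 2 kinds of culture, one given the wild-type Ngn3 vector (WT cultures) and the other a vector for a phospho-mutant Ngn3 named 6SA (6SA cultures), so there were 12 conditions. All groups had the vectors' transactivator, the doxycycline and the organoid medium with RSPO1-conditioned medium, Noggin, EGF and FGF10 in common, so an R-spondin was supplied from outside in every condition. Cells were assigned by reporter colour, and the vectors need not have been expressed evenly within a pool. Uninfected cells and cells with Ngn3 alone were not analysed here, and the 6 conditions without Ngn3 served as backgrounds for the 6 with Ngn3 sorted from the same kind of culture.

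Of 61 libraries, 58 had more than 1000000 counts on genes and were used. Summing the technical repeats of a sample gave 32 samples, 15 without and 17 with Ngn3. WT cells with Pdx1 or with MafA, 6SA cells with Pdx1 and 6SA cells with Ngn3, Pdx1 and MafA had 2 biological replicates each and the other conditions had 3. Sample totals ranged from 2579583 to 19461008 counts on genes (median 8490758.5). Levels are counts per 1000000 counts on genes (CPM) after TMM scaling of library sizes, and 3 counts, the smallest number taken as detection, corresponded to 0.154 CPM in the deepest and 1.16 CPM in the shallowest sample, for counting error only. Neurog3 itself was at 0 to 0.788 CPM (median 0.180) in the samples without Ngn3 and at 7.87 to 329 CPM (median 62.6) in those with it. No sample therefore went against its label for Ngn3, and the labels for Pdx1 and MafA were not checked in this way. Counts do not separate vector from endogenous Neurog3. Replicates 1 and 2 were at passage 2 and replicate 3 at passage 5. At passage 5, the samples without Ngn3 had MafA or both factors, and none had Pdx1 alone. Those with Ngn3 included every combination, so means at passage 5 compare unlike groups. Mean Neurog3 in samples with Ngn3 was 23.8 ± 12.7 CPM (SD, n = 5) at passage 5 and 140.8 ± 91.55 CPM (n = 12) at passage 2.

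Marker genes were measured beside the Wnt genes. The summed level of 10 duct markers was 16400 to 64100 CPM (median 23770) without Ngn3 and 2538 to 21740 CPM (median 8017) with it. Between cells with and without Ngn3 over the 6 backgrounds, where edgeR called 11.1% of all genes higher and 10.5% lower, 6 of the 10 passed the test as lower. Of 12 endocrine markers, the 11 that met the count filter in either group alone were all higher with Ngn3, and the summed level of the list went from 1.32 to 11.0 CPM to 509.7 to 13910 CPM. All 8 proliferation genes were lower, at 185.8 to 2080 CPM (median 410.9) without and 42.2 to 795.2 CPM (median 112.2) with Ngn3. Of 8 stromal markers, 4 were tested and 0 passed (edgeR, 0 also at an unadjusted p under 0.05), and their summed level was 0 to 13.2 CPM without and 0 to 296.4 CPM with Ngn3, with Lum and Thy1 below 1 CPM in every sample. Of 7 immune and endothelial markers, 3 were tested and 0 passed (0 also unadjusted), at 1.23 to 18.2 and 0.674 to 46.9 CPM, with Cd3e, Adgre1 and Cdh5 below 1 CPM in every sample. Of 10 acinar markers, 5 were tested and 1 was lower, at 0.617 to 17.1 and 0.130 to 19.7 CPM, with Ptf1a, Pnlip, Cela2a and Cpa1 below 1 CPM throughout. In pools of cells, fewer cells that express a gene and less of its RNA per cell cannot be told apart, and the part of these duct, endocrine and proliferation changes in the results below was not tested.

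Ngn3 is a basic helix-loop-helix factor, a family that binds E-boxes with the letters CANNTG. Rspo4 and Nkd1 were the 2 of the 10 genes with more RNA where Ngn3 was present, and Axin2 is the classical feedback target with less, so the 250 bases before the RefSeq start of each are shown in GRCm38.p6, 5′ to 3′ on the gene's strand, with every CANNTG in capitals. They lie at chr2:151842677-151842926 (+), chr8:88527383-88527632 (+) and chr11:108920099-108920348 (+).
Rspo4: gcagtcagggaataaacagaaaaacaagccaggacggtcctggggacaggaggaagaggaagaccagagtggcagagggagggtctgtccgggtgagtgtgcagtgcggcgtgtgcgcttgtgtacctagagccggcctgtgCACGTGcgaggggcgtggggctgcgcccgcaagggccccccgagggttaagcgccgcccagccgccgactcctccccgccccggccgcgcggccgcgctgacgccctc
Nkd1: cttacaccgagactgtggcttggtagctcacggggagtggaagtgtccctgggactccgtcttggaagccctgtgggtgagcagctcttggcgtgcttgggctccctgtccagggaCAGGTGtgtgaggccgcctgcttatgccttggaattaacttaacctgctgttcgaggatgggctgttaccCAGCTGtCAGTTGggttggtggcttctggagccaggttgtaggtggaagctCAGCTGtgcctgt
Axin2: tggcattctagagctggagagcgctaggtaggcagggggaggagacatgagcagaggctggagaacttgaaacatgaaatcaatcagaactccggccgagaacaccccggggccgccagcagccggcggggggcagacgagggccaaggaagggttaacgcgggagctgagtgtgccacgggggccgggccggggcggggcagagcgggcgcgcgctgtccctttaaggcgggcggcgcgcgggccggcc
The Rspo4 window held 1 E-box, CACGTG, which began 108 bases before the start. CACGTG, the same on both strands, was in 6.02% of the 32851 RefSeq promoter windows of that length, and any CANNTG in 66.2%. Nkd1 held 4, CAGGTG at 134, CAGCTG at 64, CAGTTG at 57 and CAGCTG at 13 bases before its start, and CAGCTG was in 13.0% of all windows. CAGATG, also searched on both strands, was in 14.4% of all windows and in none of the 8 windows of the Wnt genes. The RefSeq start of Nkd1 lies inside the gene as the annotation of positions draws it. The Axin2, Lgr4 and Wnt7a windows had no CANNTG, and the Wnt4 window and 1 of 2 Rnf43 windows had 1 each. The β-catenin partner motifs CTTTGAT and CTTTGTT, searched on both strands, were in none of the 8 windows of these 7 genes, against 3.21% and 5.03% of all windows. Windows of Lgr5, Znrf3 and Wnt7b were not used here.

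Over the 6 backgrounds, 9 of 9 genes other than Rspo4 differed between cells with and without Ngn3 in the edgeR quasi-likelihood test, with Lgr4, Lgr5, Axin2, Rnf43, Znrf3, Wnt4, Wnt7a and Wnt7b lower and Nkd1 higher. Of all 24004 genes tested, 21.5% were called in this comparison, 11.1% higher and 10.5% lower. Since the genes were picked with earlier results of these data known, nothing is read from the 9 calls as a count. The median log2 difference over the 9 genes was -1.12, beside 0.07 over all genes tested. On the log2 scale Lgr5, Rnf43, Wnt4 and Wnt7a fell by more than 2, and Znrf3, Lgr4 and Axin2 by less than 1.

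**Figure D1:**
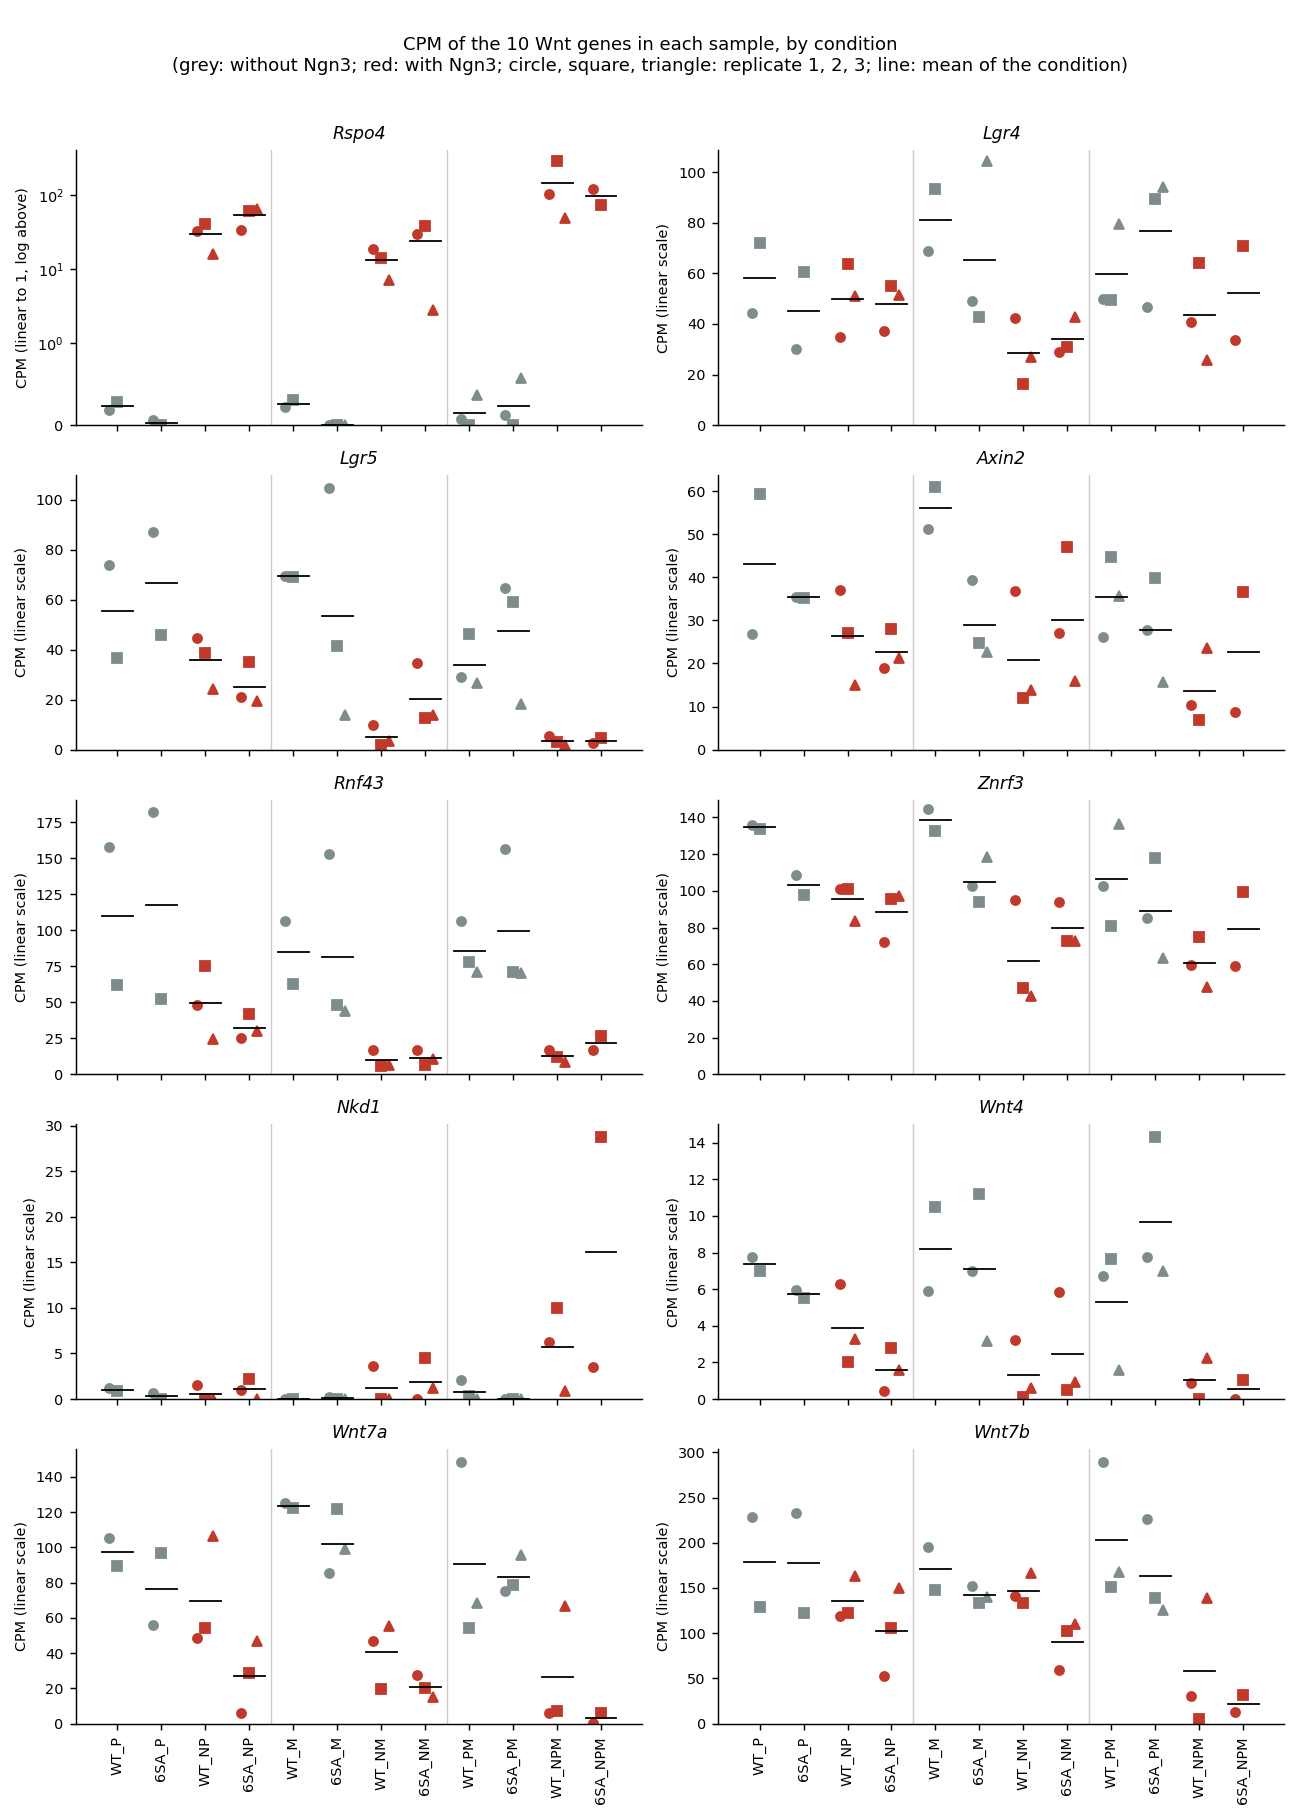
CPM of each of the 10 genes in each of 32 samples, with the 12 conditions on the x axis in blocks for Pdx1, MafA and both, grey without and red with Ngn3, and a line at each condition's mean. Rspo4 is on an axis that is linear to 1 and logarithmic above, and lies below 1 CPM in all 15 samples without Ngn3 and at 2.75 CPM or more in all 17 with it.

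The agonist Rspo4 (ENSMUSG00000032852, chromosome 2, 151842927 to 151874668, forward strand) was close to absent without Ngn3. In WT cultures the Pdx1 samples had 0.180 and 0.279 CPM, the MafA samples 0.214 and 0.308 CPM and those with both factors 0.0766, 0 and 0.361 CPM. In 6SA cultures the Pdx1 samples had 0.0560 and 0 CPM, all 3 MafA samples were at 0, and those with both factors had 0.118, 0 and 0.572 CPM. These 15 samples held 0 to 4 counts each and 17 in all, or 0.122 CPM when pooled (95% exact Poisson interval 0.0711 to 0.195, counting error only), and 6 had none.

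With Ngn3, every sample had Rspo4. It was at 32.5, 40.8 and 15.7 CPM in WT cells with Pdx1, at 18.5, 14.1 and 7.11 CPM with MafA and at 103, 283 and 48.1 CPM with both factors. In 6SA cells it was at 33.1, 60.2 and 64.4 CPM with Pdx1, at 29.5, 38.2 and 2.75 CPM with MafA, and 120 and 72.7 CPM when both were present. The samples with Ngn3 lay above those without in all 6 backgrounds and in all 14 pairs of samples with the same replicate number. Over pooled counts, 9763 against 17, the ratio was 464 (289.5 to 795.6 for the counting error of the lower group). This difference is the one by which the gene was chosen. Rspo4 runs opposite to the antisense gene Rspo4os, which had 110 counts over all samples, and whether strand was used in counting is not given in the sources used here.

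Among the cells with Ngn3, the level of Rspo4 differed between the combinations, which the choice of the gene did not use. Its mean over both kinds of culture was 125 ± 92.5 CPM (SD, n = 5) with Pdx1 and MafA, 41.1 ± 18.4 CPM (n = 6) with Pdx1 and 18.4 ± 13.5 CPM (n = 6) with MafA. The 5 samples with all 3 factors (48.1 to 283 CPM) did not overlap the 6 with Ngn3 and MafA (2.75 to 38.2 CPM). The samples with Ngn3 and Pdx1 overlapped both. Neurog3 also differed between these groups, with means of 174 ± 112 CPM with all 3 factors, 69.9 ± 79.5 CPM with Pdx1 and 86.6 ± 72.7 CPM with MafA. The part of Neurog3 level in that of Rspo4 was not tested. Adding Pdx1 to Ngn3 and MafA raised Rspo4 by 2.74 on the log2 scale (SE 0.56, edgeR adjusted p = 0.00861), in a comparison where 2.72% of all genes were called and 1 of the 10 Wnt genes. Here same-numbered samples deviated together, and a fit that blocked on replicate number called 4 of the 10, Rspo4 by 2.66 (adjusted p = 0.00133). Without replicate 2 the difference was 2.72 but no longer passed (adjusted p = 0.316). Adding MafA to Ngn3 and Pdx1 gave a log2 difference of 1.58 (SE 0.54, adjusted p = 0.143), which did not pass.

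No difference between wild-type and phospho-mutant Ngn3 passed the test for the 10 genes. Over the 3 combinations, Rspo4 differed by 0.36 on the log2 scale between 6SA and WT cells with Ngn3 (SE 0.43, edgeR adjusted p = 1). The number called was 0 of 10 and 0 of all genes (0% of 24004), with 2 of the 10 and 1422 of all genes at an unadjusted p under 0.05, and DESeq2 called 0 of the 10 and 26 of all genes. The gene of the 10 with the largest difference was Wnt7a, with a log2 difference of -1.81 in 6SA against WT cells (SE 0.49, adjusted p = 0.780). The interaction of the Ngn3 effect with Ngn3 form likewise called 0 of all genes (0%) in edgeR, with 1 of the 9 genes other than Rspo4 and 647 of all genes at an unadjusted p under 0.05. DESeq2 called 0 of the 9 and 5 of all genes there. At these group sizes the tests do not show that both forms act alike.

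The 4 genes whose log2(CPM + 1) followed Rspo4 most closely over the 32 samples, among 11686 genes with a mean of at least 5 CPM, were Resp18 (Pearson r = 0.978), Efcab1 (0.975), Gng4 (0.973) and Runx1t1 (0.973). Resp18, a protein of endocrine secretory granules, was at 0 to 0.857 CPM without Ngn3 and 18.2 to 567 CPM with it. The 32 samples fall into those with and those without Ngn3, so these values describe that split for the most part. For Lgr5 the closest were Dram1 (0.920), Ltf (0.910), Dmbt1 (0.906) and Slc26a9 (0.904), of which Ltf, encoding the secreted protein lactotransferrin, was at 334 to 5723 CPM without and 0.439 to 1009 CPM with Ngn3.

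The R-spondin receptor Lgr5 (ENSMUSG00000020140, chromosome 10, 115450311 to 115587780, reverse strand) had its lowest condition means where all 3 factors were present, while its lowest single value, 1.70 CPM, was in WT cells with Ngn3 and MafA. Without Ngn3 it was at 74.1 and 36.9 CPM with Pdx1, 69.6 and 69.1 CPM with MafA, and 29.2, 46.4 and 26.6 CPM in WT cultures that had both. The 6SA cultures had 87.2 and 45.8 CPM, 105, 41.3 and 13.97 CPM, and 64.8, 59.2 and 18.3 CPM in the same order. The 3 lowest of these 15 values were the 3 samples at passage 5.

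In WT cells with Ngn3, Lgr5 was at 44.5, 38.8 and 24.3 CPM beside Pdx1, 9.68, 1.70 and 3.33 CPM beside MafA, and 5.51, 3.22 and 1.86 CPM beside the pair of them. The 6SA cells had 21.0, 35.2 and 19.4 CPM with Pdx1, 34.6, 12.9 and 13.8 CPM with MafA, and 2.65 and 4.60 CPM with both. All 5 samples with the 3 factors were thus at 5.51 CPM or less, below every sample without Ngn3 and every sample with Ngn3 and Pdx1. The mean was 3.57 ± 1.48 CPM (SD, n = 5) with all factors, 12.7 ± 11.8 CPM (n = 6) with Ngn3 and MafA and 30.5 ± 10.4 CPM (n = 6) with Ngn3 and Pdx1.

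Lgr5 fell by 2.36 on the log2 scale over the 6 backgrounds (SE 0.29, edgeR adjusted p = 5.92e-07) and was lower in 13 of 14 same-numbered pairs. It fell by 3.48 when Ngn3 was added to Pdx1 and MafA (SE 0.55, adjusted p = 6.02e-05) and by 2.60 when it was added to MafA (SE 0.49, adjusted p = 0.00122), the second call being lost without replicate 2 (-2.35, adjusted p = 0.172). The difference of -1.02 when it was added to Pdx1 did not pass (SE 0.49, adjusted p = 0.404). Lgr5 fell by 3.06 when MafA was added to Ngn3 and Pdx1 (SE 0.54, adjusted p = 0.00207), where 1.88% of all genes and 1 of the 10 Wnt genes were called. Without replicate 2 this difference was -3.07 (adjusted p = 0.284). At passage 5 alone, Lgr5 was 19.6 ± 6.42 CPM (SD, n = 3) without and 12.5 ± 9.81 CPM (n = 5) with Ngn3. At passage 2 it was 60.7 ± 22.1 CPM and 17.9 ± 16.1 CPM (n = 12 each). The passage 5 means mix different combinations, so they do not measure the Ngn3 difference at that passage. Within one background, replicate 3 went from 26.6 to 1.86 CPM of Lgr5 where WT cultures had both other factors. Where 6SA cultures had MafA alone, replicate 3 stayed close, at 13.97 and 13.75 CPM. The summed duct markers also had their lowest condition medians with the 3 factors, at 2538 to 5796 CPM in WT and 3089 to 3983 CPM in 6SA cells. Their part in the level of Lgr5 was not tested, nor was that of the Neurog3 level. The overlapping gene A930009A15Rik had 60 counts in all.

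**Figure D2:**
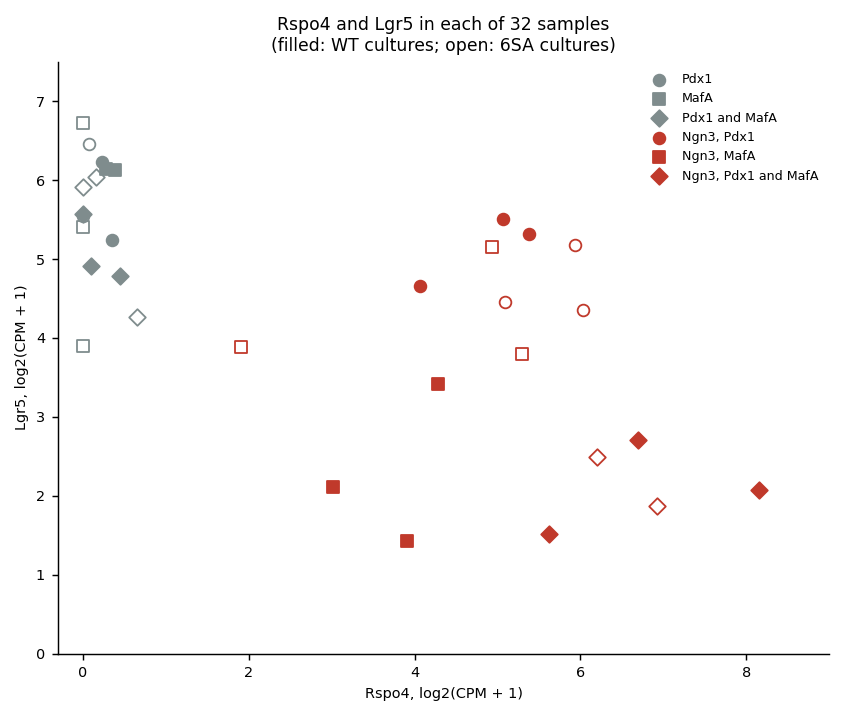
Rspo4 (x axis) and Lgr5 (y axis), both as log2(CPM + 1), in each of 32 samples, with grey points for samples without Ngn3, red for those with Ngn3, shapes for the combination of Pdx1 and MafA, filled for WT and open for 6SA cultures. The 5 samples with Ngn3, Pdx1 and MafA lie at Lgr5 levels of 1.86 to 5.51 CPM, and all red points lie to the right of all grey points.

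Lgr4 (ENSMUSG00000050199, chromosome 2, 109917647 to 110014257, forward strand), the more widely expressed receptor of R-spondins, fell by less. It was at 30.0 to 104 CPM (median 60.6) in the 15 samples without Ngn3 and at 16.4 to 70.8 CPM (median 40.7) in the 17 with it. The groups overlapped in 5 of 6 backgrounds, and only in WT cells with MafA were all samples with Ngn3 lower (16.4 to 42.2 against 68.8 and 93.4 CPM). The log2 difference over the 6 backgrounds was -0.60 (SE 0.20, edgeR adjusted p = 0.0272), with 12 of 14 same-numbered pairs lower. This call was lost with RLE size factors (-0.52, adjusted p = 0.0699), without the gene filter (adjusted p = 0.0532) and without replicate 2 or 3 (adjusted p = 0.211 and 0.239). Among the single combinations Lgr4 was called with MafA, at -1.22 (SE 0.33, adjusted p = 0.0297), but not without replicate 2 (-1.04, adjusted p = 0.514) or 3 (-0.997, adjusted p = 0.189).

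The other R-spondins and the third LGR receptor gave little signal. Rspo1 had 0 counts in all 32 samples, Rspo2 had 4 in 1 sample and none in the others, Rspo3 was at 0 to 2.07 CPM without and 0 to 7.42 CPM with Ngn3, and Lgr6 was at 0 to 2.91 and 0 to 2.34 CPM. Rspo3 and Lgr6 were tested and did not pass (edgeR adjusted p = 1 and 0.813). A count of 0 sets only a limit of 3 counts in each sample.

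The feedback ligase Rnf43 (ENSMUSG00000034177, chromosome 11, 87662722 to 87735539, forward strand) had lower means with Ngn3 in each of the 6 backgrounds. In WT cells it was at 158 and 62.3 CPM with Pdx1, against 48.5, 75.2 and 24.4 CPM with Ngn3 added, and at 106 and 62.9 CPM with MafA, against 17.3, 5.61 and 6.65 CPM. In WT cells with both factors it went from 106, 78.2 and 71.4 CPM to 17.0, 12 and 8.51 CPM. The only overlap of groups in the 6 backgrounds was in WT cells with Pdx1.

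In 6SA cells Rnf43 was at 182 and 52.6 CPM with Pdx1 and 25.1, 41.9 and 30.4 CPM after Ngn3, and at 153, 48.0 and 44.3 CPM with MafA and 17.1, 6.23 and 10.7 CPM after Ngn3. With both factors it went from 156, 71.1 and 70.6 CPM to 17.2 and 26.9 CPM. Replicate 1 had the highest value in each of the 6 conditions without Ngn3, from 106 to 182 CPM. Rnf43 fell by 2.32 on the log2 scale over the 6 backgrounds (SE 0.26, edgeR adjusted p = 1.29e-07), by 2.97 when Ngn3 was added to MafA (SE 0.44, adjusted p = 9.03e-05) and by 2.47 when it was added to Pdx1 and MafA (SE 0.46, adjusted p = 0.000399). Added to Pdx1, Ngn3 gave -1.51 (SE 0.44, adjusted p = 0.0854), a difference that DESeq2 called. The genes Gm25968 and 1110028F11Rik, which overlap Rnf43, had 24 and 298 counts in all.

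Its relative Znrf3 (ENSMUSG00000041961, chromosome 11, 5276324 to 5444847, reverse strand) fell by less. It was at 63.6 to 145 CPM (median 109) without and 42.8 to 101 CPM (median 74.6) with Ngn3. The samples with Ngn3 lay below those without in 5 of 6 backgrounds and in 14 of 14 same-numbered pairs, so the direction was regular although the size was small. Znrf3 fell by 0.54 on the log2 scale (SE 0.14, edgeR adjusted p = 0.0059) over all backgrounds and by 0.83 in WT cultures (SE 0.20, adjusted p = 0.00764). In 6SA cultures the difference was -0.26 (SE 0.20, adjusted p = 0.471), and the difference between the cultures, 0.57 (SE 0.29), did not pass (adjusted p = 1). The call over all backgrounds was lost without replicate 1, 2 or 3 (adjusted p = 0.117, 0.0941 and 0.0728) and without the gene filter (0.0594). The call in WT cultures was lost in the same 4 fits (adjusted p = 0.0578, 0.196, 0.202 and 0.0543), and without replicate 3 the difference there was -0.53.

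Axin2 (ENSMUSG00000000142, chromosome 11, 108920349 to 108950783, forward strand) was at 15.7 to 61.1 CPM (median 35.5) without and 6.88 to 47.0 CPM (median 21.3) with Ngn3. The lowest value of all samples was in WT cells with the 3 factors, which had 10.4, 6.88 and 23.5 CPM against 26.0, 44.8 and 35.8 CPM with Pdx1 and MafA. In 6SA cells all 3 factors together gave 8.68 and 36.6 CPM, a wide spread between 2 replicates. Axin2 fell by 0.73 on the log2 scale over the 6 backgrounds (SE 0.25, edgeR adjusted p = 0.0319), lower in 12 of 14 pairs. It fell by 1.17 in WT cultures (SE 0.35, adjusted p = 0.0311), where all samples with Ngn3 were below those without for 2 of 3 combinations, and the difference was -0.29 in 6SA cultures (SE 0.35, adjusted p = 0.706). The test between the cultures did not pass (0.88, SE 0.49, adjusted p = 1). The call over all backgrounds was lost with RLE size factors (-0.66, adjusted p = 0.0568), with the first technical repeat only (0.0986) and without replicate 1 or 2 (0.0845 and 0.187). In WT cultures it was lost without replicate 2 (-0.64, adjusted p = 0.752) and without replicate 3 (-1.14, adjusted p = 0.0614).

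Nkd1 (ENSMUSG00000031661, chromosome 8, 88521354 to 88594884, forward strand), an inhibitor that acts at Dishevelled, was the one feedback gene with more RNA after Ngn3, but its counts were few. Without Ngn3, 9 of 15 samples had no count and the highest was 2.07 CPM. With Ngn3, 6 of 17 had none, and the highest condition means were with all 3 factors, at 6.24, 9.95 and 0.931 CPM in WT and 3.46 and 28.7 CPM in 6SA cells.

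With Ngn3 and Pdx1, Nkd1 was at 0 to 2.21 CPM, and with Ngn3 and MafA at 0 to 4.46 CPM. The groups overlapped in 5 of 6 backgrounds, the exception being 6SA cells with Pdx1 and MafA, where all 3 samples without Ngn3 were at 0. Over pooled counts, 693 with and 60 without Ngn3, the ratio was 9.32 (7.24 to 12.2 for the counting error of the lower group), and 331 of the 693 were in replicate 2 of 6SA cells with the 3 factors. The edgeR log2 difference over the 6 backgrounds was 4.09 (SE 1.03, adjusted p = 0.00491), a fitted value that depends on the prior count because 2 of the backgrounds had no count at all. Nkd1 was higher in 11 of 14 same-numbered pairs. The call held without that 6SA sample, but not without replicate 1 (3.89, adjusted p = 1) or replicate 2 (3.11, adjusted p = 0.229) of all conditions. Its calls in 6SA cultures and for Ngn3 added to Pdx1 and MafA were likewise lost without replicate 2 (adjusted p = 0.440 and 0.261). At passage 5, Nkd1 was at 0 in 3 of 3 samples without Ngn3 and at 0 to 1.22 CPM in 5 with it, groups of unlike combinations.

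The ligands Wnt7a and Wnt7b are close paralogs, so the handling of reads shared between them may affect the counts of both. Wnt7a (ENSMUSG00000030093, chromosome 6, 91363981 to 91411363, reverse strand) was at 54.2 to 148 CPM (median 95.6) without and 0.203 to 107 CPM (median 27.5) with Ngn3. Its mean was lowest with the 3 factors, at 5.83, 7.46 and 66.6 CPM in WT and 0.203 and 5.99 CPM in 6SA cells. Replicate 3 of these WT cells stood apart from the other 4 samples. It was also the one with the least Neurog3 of the 5, at 14.6 CPM against 163 to 329 CPM, and the part of that in its Wnt7a was not tested.

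Wnt7a was lower in 14 of 14 same-numbered pairs and fell by 2.06 on the log2 scale over the 6 backgrounds (SE 0.35, edgeR adjusted p = 6.04e-05). It fell by 3.26 when Ngn3 was added to Pdx1 and MafA (SE 0.66, adjusted p = 0.000932), by 2.85 in 6SA cultures (SE 0.52, adjusted p = 0.000388), and differed by -1.28 in WT cultures (SE 0.47, adjusted p = 0.1001). The interaction between the cultures, -1.56 (SE 0.69), did not pass (adjusted p = 1). These sizes rested on single samples. Without replicate 2 of 6SA cells with the 3 factors, which leaves 1 sample assumed to vary like the others, Wnt7a differed by -2.70 over the 6 backgrounds, -4.12 in 6SA cultures and -5.18 with Pdx1 and MafA, all still called. With Pdx1 and MafA the difference was -4.26 without replicate 3 of the WT cells, and -2.25, -5.11 and -4.33 without replicate 1, 2 or 3 of all conditions. At passage 5 Wnt7a was at 87.7 ± 16.9 CPM (SD, n = 3) without and 58.2 ± 33.2 CPM (n = 5) with Ngn3, and at passage 2 at 96.5 ± 29 and 22.6 ± 18.8 CPM (n = 12 each). The passage 5 groups hold unlike combinations. In same-numbered passage 5 samples Wnt7a was at 68.3 CPM without and 66.6 CPM with Ngn3 in WT cells with Pdx1 and MafA. In 6SA cells with MafA it went from 99.1 to 15.0 CPM.

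Wnt7b (ENSMUSG00000022382, chromosome 15, 85535437 to 85582473, reverse strand) was at 122.7 to 290 CPM (median 151) without and 5.12 to 167 CPM (median 110) with Ngn3. Its mean was again lowest with the 3 factors, at 31.0, 5.12 and 139 CPM in WT and 13.4 and 31.2 CPM in 6SA cells, and replicate 3 of the WT cells stood apart as for Wnt7a. With Ngn3 and Pdx1 it was at 52.8 to 164 CPM and with Ngn3 and MafA at 59.2 to 167 CPM, ranges that overlap those without Ngn3. Wnt7b fell by 1.12 on the log2 scale over the 6 backgrounds (SE 0.27, edgeR adjusted p = 0.0026), in 14 of 14 pairs, and by 2.34 when Ngn3 was added to Pdx1 and MafA (SE 0.49, adjusted p = 0.00136). At passage 5 the means were 144.5 ± 21.0 CPM (SD, n = 3) without and 145.7 ± 23.0 CPM (n = 5) with Ngn3. At passage 2 they were 179 ± 53.8 and 76.5 ± 49.5 CPM (n = 12 each). Those at passage 5 again mix different combinations. Within one background, replicate 3 fell from 167.5 to 138.8 CPM of Wnt7b where WT cultures had both other factors. It fell from 140.0 to 109.7 CPM where 6SA cultures had MafA alone. Without replicate 1 the difference over the 6 backgrounds was -0.54 and did not pass (adjusted p = 0.263), and neither did that in 6SA cultures (-0.78, adjusted p = 0.256). The difference with Pdx1 and MafA was -1.57 without replicate 1 and -3.36 without replicate 3, both called. The antisense gene AU022754 had 332 counts in all.

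Wnt4 (ENSMUSG00000036856, chromosome 4, 137277489 to 137299726, forward strand), a ligand that in many tissues acts apart from β-catenin, was the least abundant of Wnt4, Wnt7a and Wnt7b. It was at 1.56 to 14.3 CPM (median 6.99) without and 0 to 6.31 CPM (median 1.04) with Ngn3, lower in 13 of 14 pairs. Wnt4 fell by 2.23 on the log2 scale over the 6 backgrounds (SE 0.52, edgeR adjusted p = 0.00218) and fell by 3.27 when Ngn3 was added to Pdx1 and MafA (SE 0.98, adjusted p = 0.0209). Without replicate 2 of 6SA cells with the 3 factors these differences were -3.12 and -5.94, both called. The second was not called without replicate 1 (-2.62, adjusted p = 0.155) or replicate 2 (-5.41, adjusted p = 0.0622) of all conditions. Replicate 1 had the highest level after Ngn3 in WT cells with Pdx1 (6.31 CPM) and with MafA (3.23 CPM) and in 6SA cells with MafA (5.86 CPM).

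Per kilobase of exon, which allows levels of different genes to be set side by side, the order without Ngn3 was led by Wnt7b and Wnt7a, with medians of 30.9 and 30.1 CPM per kb over 15 samples. Their ranges overlapped (25.1 to 59.1 and 17.1 to 46.8 CPM per kb). Znrf3 (13.8), Rnf43 (10.9) and Lgr4 (10.3 CPM per kb) followed with ranges that overlapped each other, then Axin2 (6.45), Lgr5 (4.52) and Wnt4 (1.67), with Rspo4 at 0.0323 and Nkd1 at 0. With Ngn3 the place of Rspo4 differed by combination. It had the highest median of the 10 genes with all 3 factors, at 43.3 CPM per kb (20.3 to 119 over 5 samples), where Znrf3 followed at 7.54 (6.06 to 12.6) and Wnt7b ranged from 1.05 to 28.3 CPM per kb. With Ngn3 and Pdx1 it came second, at 15.6 CPM per kb (6.64 to 27.2 over 6 samples) beside 24.7 (10.8 to 33.4) for Wnt7b. With Ngn3 and MafA it was below Wnt7b, Znrf3 and Wnt7a, at 6.87 CPM per kb (1.16 to 16.1 over 6 samples) beside 24.8 (12.1 to 34.03) for Wnt7b. Of these ranges, only those of Rspo4 and Znrf3 with all 3 factors did not overlap. Over all 17 samples with Ngn3, Rnf43 was at a median of 2.63 and Lgr5 at 1.25 CPM per kb.

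The number of genes called differed between single combinations, which is not itself a test of a difference between them. When Ngn3 was added to Pdx1 alone, 0 of the 9 genes other than Rspo4 passed in edgeR, beside 1.49% of all genes (1.32% higher, 0.171% lower), with 2 of the 9 at an unadjusted p under 0.05 and 1 called by DESeq2. Added to MafA, it changed 3 of 9 (Lgr4, Lgr5 and Rnf43, all lower), beside 4.67% of all genes (2.5% higher, 2.17% lower). Same-numbered samples deviated together there, and with the replicate block 6 of 9 were called, 5 lower and 1 higher. Added to Pdx1 and MafA, it changed 6 of 9 (Lgr5, Rnf43, Wnt4, Wnt7a and Wnt7b lower, Nkd1 higher), beside 17.8% of all genes (9.42% higher, 8.4% lower). The test of a difference between the Ngn3 effects with Pdx1 and with MafA called 0 of 9 and 0 of all genes in edgeR (0%), with 3 of the 9 and 820 of all genes at an unadjusted p under 0.05, and DESeq2 called 0 of the 9 and 19 of all genes. The lack of calls with Pdx1 is therefore not shown to differ from the result with MafA. No test compared either with the Ngn3 effect beside Pdx1 and MafA together.

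**Figure D3:**
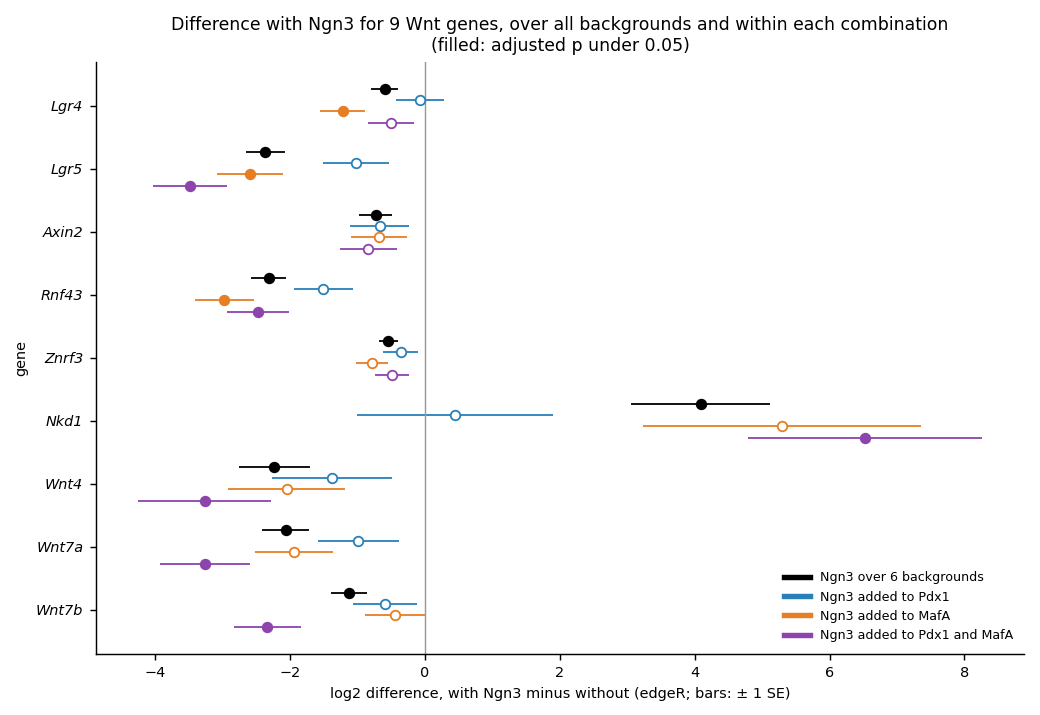
Log2 difference in 9 Wnt genes (y axis) between cells with and without Ngn3 on the x axis, over 6 backgrounds and for Ngn3 added to Pdx1, to MafA and to both, with bars of ± 1 SE and filled points for an edgeR adjusted p under 0.05. Lgr5 lies at -1.02 for Pdx1, -2.60 for MafA and -3.48 for both, while the fitted difference of Nkd1 is positive with wide bars in each.

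In WT cultures, 4 of the 9 passed (Lgr5, Axin2, Rnf43 and Znrf3, all lower), beside 8.59% of all genes (4.23% higher, 4.36% lower). With the replicate block, which same-numbered samples allowed here, 6 passed. In 6SA cultures 6 passed (Lgr5, Rnf43, Wnt4, Wnt7a and Wnt7b lower, Nkd1 higher), beside 14.1% of all genes (8.12% higher, 5.98% lower). Without Ngn3, cells with Pdx1 and cells with MafA did not differ in any of the 10 genes by edgeR, with 0 of the 10 also at an unadjusted p under 0.05 and 0 called by DESeq2. Of all genes, 0% were called there, with 675 at an unadjusted p under 0.05 and 26 by DESeq2.

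The remaining Wnt pathway was described through 77 further genes in 8 lists, of which 70 were tested. Of these, 9 were higher and 12 lower with Ngn3 over the 6 backgrounds, and the median log2 difference was 0.05, beside 0.07 over all genes. These 21 of 70 stand beside the 21.5% of all genes called, and no test was made of the list. Of the 9 higher, Wnt3, Wif1 and Sfrp5 met the filter of a count in 5 libraries through the libraries with Ngn3 only, so they had to differ to be tested, and their levels are given with no p. Without replicate 1 or 2 only 10 and 9 of the 70 passed.

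**Figure D4:**
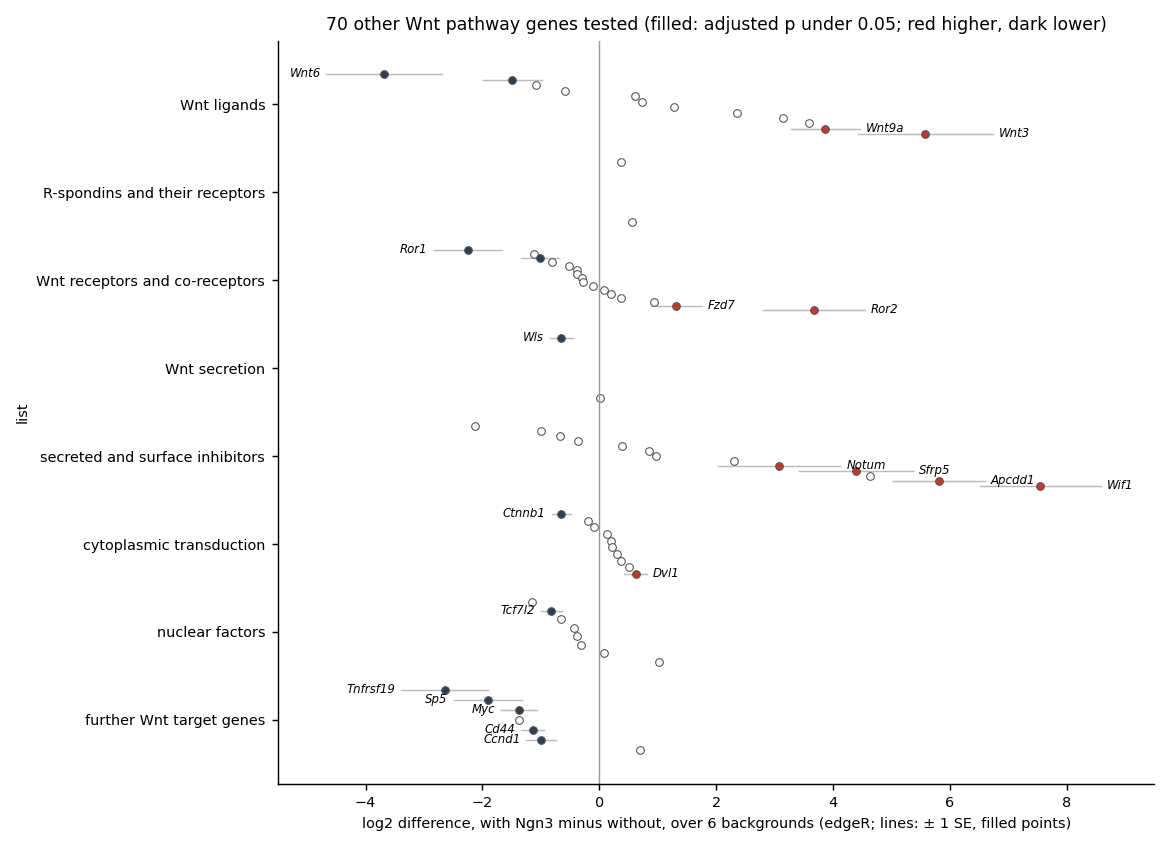
Log2 difference between cells with and without Ngn3 over 6 backgrounds (x axis) for 70 Wnt pathway genes in 8 lists (y axis), with filled points for an edgeR adjusted p under 0.05 and lines of ± 1 SE on those. The inhibitor list holds 4 filled points, all to the right of 0 and 2 of them genes tested only through the libraries with Ngn3, and the target gene list 5, all to the left.

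Of 14 secreted and surface inhibitors 13 were tested, and 4 were higher and 0 lower, beside 11.1% and 10.5% of all genes, with 2 of the 4 (Wif1 and Sfrp5) tested only through the libraries with Ngn3. Dkk1, the one not tested, had 61 counts in 2 of 15 samples without and none with Ngn3. Apcdd1, which binds Wnt and LRP proteins, was at 0 to 1.35 CPM without and 1.40 to 37.9 CPM (median 11.6) with Ngn3, a log2 difference of 5.81 (SE 0.79, edgeR adjusted p = 3.46e-06). Wif1, which binds Wnt ligands, had counts in 3 of 15 samples without and 15 of 17 with Ngn3 (0 to 34.9 CPM, median 5.72). The carboxylesterase Notum (0 to 2.43 against 0 to 8.82 CPM, edgeR adjusted p = 0.0352) and Sfrp5, with 3 counts in all without and 87 with Ngn3, were low in both groups. The groups of Wif1, Notum and Sfrp5 overlapped at 0.

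Of 7 further target genes, 5 were lower and 0 higher, beside 10.5% and 11.1% of all genes. Cd44 was at 1870 to 3874 CPM (median 2646) without and 290.8 to 2517 CPM (median 1596) with Ngn3, a fall of 1.14 on the log2 scale (SE 0.20, edgeR adjusted p = 9.34e-05). Myc fell by 1.38 (adjusted p = 0.00158), Ccnd1, a cyclin, by 0.99 (0.00472), the transcription factor gene Sp5 by 1.91 (0.0188) and the receptor gene Tnfrsf19 by 2.64 (0.0103). Sox4 and Ascl2 did not pass. Myc and Ccnd1 are also genes of proliferating cells, and the 8 proliferation genes were lower in the same samples, whose part in these falls was not tested.

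Of 12 ligands tested, 2 were higher and 2 lower, beside 11.1% and 10.5% of all genes. Wnt9a (0 to 19.1 CPM against 3.98 to 99.3 CPM, median 25.1, edgeR adjusted p = 1.67e-05) was higher. Wnt3, the other, had 2 counts in all without and 488 with Ngn3, in 1 of 15 and 9 of 17 samples. It was tested only through the libraries with Ngn3, as were Wnt1, Wnt9b and Wnt10b, which did not pass. Among the 2 lower was Wnt6, which had no count in 11 of 17 samples with Ngn3 (adjusted p = 0.0077). Of 16 receptors and co-receptors, 2 were higher and 2 lower, beside 11.1% and 10.5% of all genes. The higher were Fzd7 by 1.32 (SE 0.43, edgeR adjusted p = 0.0285) and Ror2 by 3.67 (SE 0.87, adjusted p = 0.00232). Among the lower was Ror1 by 2.25 (SE 0.59, adjusted p = 0.00564). Fzd7 overlapped between the groups, at 0.120 to 15.9 and 0.439 to 18.9 CPM. Wls, which carries Wnt ligands to the surface, fell by 0.65 (SE 0.19, adjusted p = 0.0146).

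In the cytoplasm and nucleus the differences were small, in this comparison that called 11.1% of all genes higher and 10.5% lower. Ctnnb1, which encodes β-catenin, fell by 0.65 on the log2 scale (SE 0.16, edgeR adjusted p = 0.00352), from 719 to 1677 CPM (median 1267) to 461 to 1377 CPM (median 820). Dvl1, a Dishevelled gene, was higher by 0.62 (SE 0.20, adjusted p = 0.0214), and the other 8 of 10 cytoplasmic genes did not pass. Of 8 nuclear factors, Tcf7l2 fell by 0.82 (SE 0.19, adjusted p = 0.00158), from a median of 46.0 to 27.1 CPM, and 7 did not pass. The other pathway lists had no further calls, with 0 of 2 tested among R-spondins and their receptors (edgeR, 0 also at an unadjusted p under 0.05).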

How the data were processed

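RNA was sequenced from pools of 50 sorted mouse organoid cells, as single-end reads of 50 bp. The authors used GSNAP for alignment and HTSeq 0.5.3p3 for counting on Ensembl release 81 genes, and deposited the raw, unnormalized counts, in which technical repeats stand as separate columns. Strand use is not given in the sources used here. Rows of HTSeq summary classes and 92 spike-in sequences stayed out of library sizes and tests. The class of reads on no feature took 6.42 to 27.8% of a library's total over all rows. Of 46078 genes, 45143 were matched to a symbol.

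Libraries with under 25% spike-in counts, over 1000000 counts on genes and over 10000 detected genes were kept (58 of 61, the other 3 failing on counts), technical repeats were summed, and 0 pairs of libraries were identical. Tests covered the 24004 genes that had a count in 5 or more libraries and whose log2(CPM + 1) varied by more than 0.001 (variance), among them all 10 genes described. One model of 12 conditions was fitted with edgeR 4.0.16 (R 4.3.3, TMM, trended dispersion, quasi-likelihood test, legacy setting), and genes with a Benjamini-Hochberg adjusted p under 0.05 over all genes tested were called. The sample totals, 2579583 to 19461008 counts, set the precision, and intervals cover counting error only, since PCR copies are not independent molecules. Standard errors are the log2 difference divided by the root of the F statistic. Gene positions and exon lengths are from GENCODE M21, on GRCm38 like the authors' Ensembl release, and promoter sequences from RefSeq (GRCm38.p6), which matched 7 of the 10 genes.

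The 10 genes, the pathway lists and the marker lists were chosen with earlier results of these data known. Named beside the 10 genes were the pathway genes past the threshold for Ngn3 over the 6 backgrounds, up to the 10 higher and 10 lower with the lowest adjusted p, and the 4 genes most correlated with Rspo4 and with Lgr5. Other R-spondins, Lgr6, Sox4 and Ascl2 were named after their values were seen.

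Replicate numbers come from the labels, which call them biological replicates, and go with a passage. They were taken to pair samples where the deviations from group means, over the 5000 most expressed genes, correlated above 0.1 in every same-numbered pair. That held for Ngn3 in WT cultures (7 of 7 pairs), Ngn3 added to Pdx1 (4 of 4) and to MafA (5 of 5), Pdx1 added to Ngn3 and MafA (5 of 5) and Pdx1 against MafA (4 of 4), and not over all 6 backgrounds (12 of 14 pairs, -0.387 to 0.746) or in the other comparisons.

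The alternatives were DESeq2 1.42.0, RLE size factors, no legacy setting, filterByExpr, no gene filter, all libraries, only the conditions compared, the first technical repeat alone, a block for replicate number and each replicate left out. Fits without replicate 2 of 6SA cells or replicate 3 of WT cells with the 3 factors were added after seeing the data. In simulated data for Ngn3 over the 6 backgrounds, with 200 of 24004 genes changed, edgeR recovered 65.7% of 2-fold, 94% of 4-fold and 100% of 16-fold changes, with 10 unchanged genes among 183 calls, and DESeq2 73.1%, 98.5% and 100%, with 44 among 225.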

Additional observations from a re-analysis of the deposited data

Results flagged for a closer look

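The 3 libraries left out for low totals, which entered only the alternative fits with all libraries, carried Rspo4 above every library without Ngn3. All 3 were of cells with Ngn3, Pdx1 and MafA. Per 1000000 counts on genes, without TMM scaling, Rspo4 was at 100.7 in the library of WT replicate 2, at 82.8 in that of 6SA replicate 2 and at 29.4 in that of 6SA replicate 3, while the highest kept library without Ngn3 was at 0.521. The kept libraries of these cells were at 52.6 to 321 on the same scale, so the third value lay below all of them. The cause of their low totals was not tested.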

How the results depend on the processing

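Of the comparisons with calls among the 9 genes other than Rspo4, Ngn3 over 6 backgrounds called 9 and its alternatives 7 to 9, except that leaving out a replicate number from all conditions gave 5 to 7, and the 8 lower and 1 higher kept their direction in each alternative. With RLE size factors Lgr4 and Axin2, and without the gene filter Lgr4 and Znrf3, were no longer called. The causes were not tested. Leaving out replicates gave 2 to 6 in WT cultures (4 in the fit reported), 4 to 6 in 6SA cultures (6) and 4 to 7 for Ngn3 added to Pdx1 and MafA (6). For Ngn3 added to Pdx1 (0), DESeq2, the fit without the legacy setting and the fit without a gene filter gave 1 each. For Ngn3 added to MafA (3), DESeq2, filterByExpr and no gene filter gave 5 each, the replicate block 6, and left-out replicates 1 to 5. Over all 10 genes, MafA added to Ngn3 and Pdx1 (1) gave 4 with DESeq2, 5 without the legacy setting, 6 without a gene filter, 4 with the replicate block and 0 to 4 with replicates left out. Pdx1 added to Ngn3 and MafA (1) gave 2 with RLE size factors and with filterByExpr, 4 with DESeq2, without a gene filter and with the replicate block, 3 without the legacy setting and 0 to 3 with replicates left out. The 6SA against WT comparison (0) gave 1 without a gene filter. The pathway genes (21) ranged from 9 to 22 with replicates left out, with 27 under the replicate block, and 18 to 24 otherwise. The block changed no other count of Wnt genes by more than 1.5 times. Over the 6 backgrounds, where the numbers did not pair all samples, it called the same 9 genes, and of all genes 6620 in place of 5168. Calls over all genes also moved. Without replicate 3 of WT cells with the 3 factors alone, they were 5365 over the 6 backgrounds, 2313 in WT cultures and 4767 for Ngn3 added to Pdx1 and MafA. In that fit they were 1072 for MafA added to Ngn3 and Pdx1 and 1619 for Pdx1 added to Ngn3 and MafA. The ranges that follow are of fits that left a replicate number out of all conditions. With a replicate left out they ranged from 2085 to 5074 over the 6 backgrounds (5168), 404 to 2275 in WT cultures (2062), 707 to 3105 in 6SA cultures (3384), 16 to 696 for Ngn3 added to Pdx1 (358), 138 to 1115 added to MafA (1121), 880 to 3904 added to both (4279), 16 to 1179 for MafA added to Ngn3 and Pdx1 (451), 0 to 999 for Pdx1 added to Ngn3 and MafA (654) and 0 to 31 for 6SA against WT (0), and the lowest of each came without replicate 2 (for 6SA against WT, without 2 or 3). With DESeq2, without a gene filter and with the replicate block they were 911, 1273 and 1011 for Ngn3 added to Pdx1, 1928, 2077 and 2123 added to MafA, 1344, 1454 and 1188 for MafA added to Ngn3 and Pdx1, and 1935, 1930 and 2038 for Pdx1 added to Ngn3 and MafA. Without the legacy setting the first and the last 2 of these had 684, 880 and 1648. The block gave 3197 in WT cultures, the conditions compared alone 180 for MafA added to Ngn3 and Pdx1, and the first technical repeat 321 for Pdx1 added to Ngn3 and MafA. Of the comparisons with 0 calls, no gene filter gave 239 for 6SA against WT, 113 for Pdx1 against MafA, where the conditions compared alone gave 123 and the block 1, and 101 and 126 for the interactions with Ngn3 form and with Pdx1 or MafA. RLE size factors moved the median log2 difference of all genes from 0.05 to 0.17 for Ngn3 added to Pdx1 and MafA. Depth limits Rspo4 and Nkd1 without Ngn3, where most samples held 3 counts or fewer, and Wnt4 with Ngn3.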
